A study of Mus musculus with 2 samples.

Results

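Osteopontin (OPN, encoded by Spp1) is a secreted matrix and cytokine-like protein that cells sense through integrins and through CD44. The genes described here are 10 receptors or receptor subunits taken by name from the 27998 genes of the count tables: Cd44, the integrin beta subunits Itgb1, Itgb2, Itgb3 and Itgb5, and the integrin alpha subunits Itgav, Itga1, Itga4, Itga5 and Itga9. Membership goes by name, with no threshold on a measured value. All 10 had UMIs in both libraries, where a UMI (unique molecular identifier) stands for 1 captured transcript.

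The stromal vascular fraction of epididymal white adipose tissue (eWAT), which is what remains of fat after the adipocytes are floated off, came from C57BL/6 mice (male C57BL/6J in the study's methods) that started a low fat diet (LFD) or a high fat diet (HFD) at 6 weeks of age and stayed on it for 24 weeks. There was 1 droplet library (10x Chromium 3' v3) per diet, and how many mice went into each is not stated in the sources used here. The diet of each library was taken from its treatment label and title, while a protocol text that both samples share names a low fat diet for each of them. Diet cannot be told apart from library, no test between diets is possible, and every interval below is a 95% interval of counting error only. The LFD library held 1113 barcodes and 7356278 UMIs and the HFD library 1144 barcodes and 8412325 UMIs, and they shared 0 barcodes.

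Barcodes with at least 200 genes (1057 LFD and 1117 HFD) were put into classes by UMIs of marker genes: at least 10 of Dcn for fibroblasts, with those holding at least 3 of Pi16, Dpp4 and Sema3c set apart, 3 of Cdh5 and Cldn5 for endothelial cells, 5 of Rgs5, Kcnj8, Abcc9 and Notch3 for mural cells, 10 of C1qa, C1qb and C1qc for macrophages, and 2 of Cd3d, Cd3e and Cd3g for T cells. Only barcodes in exactly 1 class were used. They comprised 204 LFD and 207 HFD fibroblasts, 173 and 84 Pi16/Dpp4/Sema3c fibroblasts, 98 and 115 endothelial cells, 229 and 320 macrophages, and 72 and 21 T cells. Mural cells alone numbered 5 and 6 and are not described, because 51 LFD and 92 HFD barcodes met the mural and the endothelial cut together. Their median of 13270 and 9029 UMIs stood beside 4318 and 3156 in endothelial cells, and they are given as a group of their own that was added after the data were seen. A further 210 LFD and 243 HFD barcodes met no cut.

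Lists of cell type markers were summed in each class. They include the genes of the cuts, so their agreement with the class names was partly fixed in advance. Some sums in other classes touch the results below. The Pi16/Dpp4/Sema3c fibroblasts also held mesothelial transcripts (Msln, Upk3b, Krt19 and Wt1 summed to 1221 CPM, counts per 1000000 UMIs of a class, on LFD and 1047 on HFD, against 222 and 163 in the other fibroblasts). The LFD T cells held 293 CPM of 6 macrophage markers, 387 CPM of natural killer cell, 146 of B cell, 119 of dendritic cell and 543 of cycling markers. The HFD T cells held 0 UMIs of macrophage, B cell and dendritic cell markers, 85.2 CPM of natural killer cell and 63.9 of cycling markers. Monocyte markers stood at 970 and 1108 CPM in them.

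An integrin is a dimer of 1 alpha and 1 beta chain, and the pair decides what it binds. Itgav with Itgb1, Itgb3 or Itgb5, and Itga5 with Itgb1, dock on the RGD motif of OPN and of other matrix proteins such as fibronectin and vitronectin. Itga4 and Itga9, each with Itgb1, use a neighbouring stretch of OPN that thrombin cleavage exposes, and Itga4 with Itgb1 also binds VCAM-1. Itga1 with Itgb1 is best known as a collagen receptor, Itgb2 is the beta chain of the leukocyte integrins, and CD44 is the main hyaluronan receptor.

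The 3 members farthest apart between the diets in macrophages, by the ratio of their levels, were Itgb5, Itgav and Cd44. The 250 bases before their RefSeq start sites (GRCm38.p6, read 5′ to 3′ on the gene's strand) are shown for that reason. Capitals mark the core of the sites bound by PU.1, a transcription factor of myeloid cells (GAGGAA, or TTCCTC on the other strand), and GC boxes (GGGCGG or CCGCCC).
Cd44, chr2:102901666-102901915, minus strand: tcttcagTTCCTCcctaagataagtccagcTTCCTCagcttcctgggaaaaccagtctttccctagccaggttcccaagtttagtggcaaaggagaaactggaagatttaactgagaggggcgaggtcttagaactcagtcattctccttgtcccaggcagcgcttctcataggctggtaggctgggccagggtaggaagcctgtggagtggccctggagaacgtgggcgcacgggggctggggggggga
Itgav, chr2:83724147-83724396, plus strand: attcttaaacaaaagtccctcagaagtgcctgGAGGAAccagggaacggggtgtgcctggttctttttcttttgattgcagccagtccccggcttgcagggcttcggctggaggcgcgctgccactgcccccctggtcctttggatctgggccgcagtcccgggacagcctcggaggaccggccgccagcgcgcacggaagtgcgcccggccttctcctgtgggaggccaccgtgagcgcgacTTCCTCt
Itgb5, chr16:33829415-33829664, plus strand: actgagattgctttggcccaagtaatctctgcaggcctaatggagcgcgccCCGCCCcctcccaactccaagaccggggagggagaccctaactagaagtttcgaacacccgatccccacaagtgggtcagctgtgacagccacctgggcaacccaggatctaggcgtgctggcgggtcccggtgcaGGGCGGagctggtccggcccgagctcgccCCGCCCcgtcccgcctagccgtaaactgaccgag
Cd44 and Itgav each held 2 PU.1 cores and 0 GC boxes, and Itgb5 held 0 PU.1 cores and 3 GC boxes. Of 32851 promoter windows of this length, 23.25% held a PU.1 core and 32.74% a GC box. Neither an AP-1 motif (TGANTCA, in 6.749% of windows) nor an E-box (CACGTG, in 6.021%) was found in these 3 windows. Among the other 5 members with a RefSeq window, Itgb1 and Itga5 held 1 PU.1 core each, Itgb1 and Itga4 1 GC box each and Itga5 2, and Itga1 held none of the 4 motifs. The RefSeq window of Itga9 also held none, but it lies inside the annotated gene and not before its start. These are matches of letters only.

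The members fell into different patterns by cell class, which the plot of levels shows. Counting is per transcript end and not scaled to gene length, so levels are compared between classes for a gene. Itgb1, the beta chain that most of the alpha chains here share, was found in every class. Its level was 525 CPM (95% interval 466 to 589) in LFD and 660 CPM (592 to 734) in HFD endothelial cells, then 457 and 533 CPM in T cells, 301 and 315 in fibroblasts, 287 and 357 in Pi16/Dpp4/Sema3c fibroblasts, and 245 and 238 in macrophages. Endothelial cells stood above both fibroblast classes and macrophages beyond the counting intervals in both libraries, and overlapped with T cells in both.

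**Figure D1:**
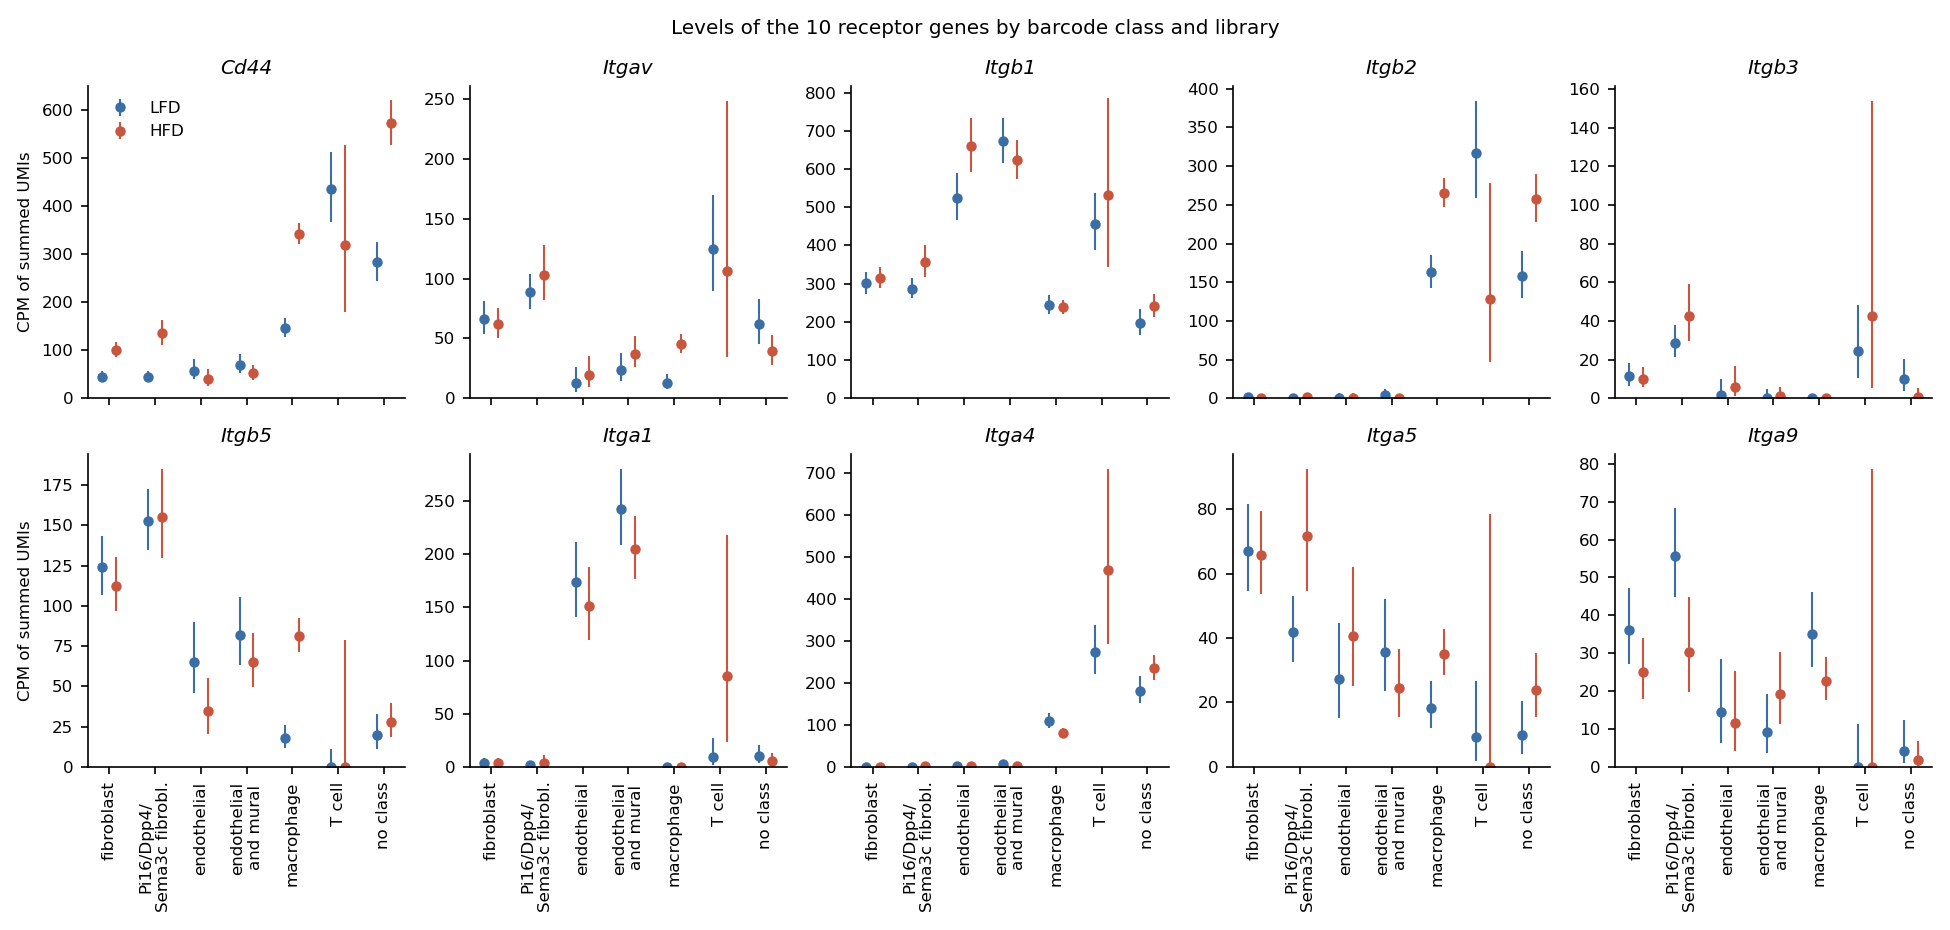
Level of each of the 10 genes (y axis, CPM of summed UMIs, own scale per gene) in 7 groups of barcodes (x axis) in the LFD library (blue) and the HFD library (red), with 95% Poisson intervals as bars. Itgb2 and Itga4 are near 0 outside the leukocyte groups, Itga1 stands out in the 2 endothelial groups, and Cd44 is higher on HFD in both fibroblast groups and in macrophages.

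Itga1 was a gene of endothelial barcodes. It measured 174 CPM (141 to 212) on LFD and 151 CPM (119 to 189) on HFD, and in the barcodes with endothelial and mural markers 242 CPM (209 to 280) and 205 CPM (177 to 236). Fibroblasts held 5 and 6 UMIs of it and macrophages 0 and 0, where 3 UMIs would have given 2.03 CPM on LFD and 1.03 CPM on HFD. In HFD T cells it came to 4 UMIs, 3 of them in 1 barcode. The endothelial and mural group carried 56.1% of all Itga1 UMIs on LFD and 59.9% on HFD.

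The leukocyte members were Itgb2 and Itga4. Itgb2 measured 317 CPM in LFD T cells (259 to 384), 163 in LFD macrophages (143 to 185), 128 in HFD T cells (46.9 to 278) and 266 in HFD macrophages (247 to 285). The order of T cells and macrophages thus changed between the libraries, and in HFD their intervals overlapped. Fibroblasts of both kinds and endothelial cells held 0 to 3 UMIs of Itgb2 in each library. Itga4 was highest in T cells, at 274 CPM (221 to 337) on LFD and 469 CPM (294 to 710) on HFD, followed by macrophages at 110 CPM (93.3 to 128) and 81.0 CPM (71.0 to 92.0). In fibroblasts Itga4 had 0 UMIs in both libraries, which 3 UMIs would have brought to 2.01 and 1.88 CPM.

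Itgb5 and Itga9 had their highest values of the 5 classes in the Pi16/Dpp4/Sema3c fibroblasts, and so did Itgb3 on LFD. Itgb5 measured 153 CPM there on LFD (135 to 173) and 155 on HFD (130 to 185), against 124 (107 to 143) and 113 (96.7 to 130) in the other fibroblasts. The intervals of these neighbours overlapped in both libraries, and T cells held 0 UMIs of Itgb5. Itgb3 measured 28.7 CPM (21.2 to 38.1) and 42.5 CPM (29.6 to 59.1), against 11.4 and 10.0 CPM in the other fibroblasts, so that the fibroblast classes did not overlap in either library, while T cells at 24.4 and 42.6 CPM rested on 8 and 2 UMIs. With 81 LFD and 69 HFD UMIs in all, Itgb3 was the sparsest member. Itga9 measured 55.7 CPM (45.0 to 68.2) and 30.4 CPM (19.7 to 44.8), with the other fibroblasts at 36.2 and 25.0 CPM and macrophages at 35.1 and 22.8 CPM, and the Pi16/Dpp4/Sema3c fibroblasts overlapped with both in each library.

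Itga5 and Itgav were spread more widely. Itga5 stood at 67.1 CPM (54.6 to 81.6) in LFD and 65.7 CPM (53.7 to 79.5) in HFD fibroblasts, and at 41.9 and 71.7 CPM in Pi16/Dpp4/Sema3c fibroblasts, which exchanged their order between the libraries. Itgav had its highest value in T cells (125 CPM, 89.7 to 170, on LFD and 107 CPM, 34.6 to 249, on HFD), but these rest on 41 and 5 UMIs and overlapped with Pi16/Dpp4/Sema3c fibroblasts at 88.6 and 103 CPM. Fibroblasts followed at 66.4 and 61.9 CPM, and endothelial cells were low at 12.7 and 19.4 CPM.

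Cd44 changed its order of classes with the library. On LFD, T cells (436 CPM, 367 to 514) stood above macrophages (146 CPM, 127 to 167), and endothelial cells (57.9), Pi16/Dpp4/Sema3c fibroblasts (45.5) and fibroblasts (45.0) overlapped. On HFD, macrophages (342 CPM, 321 to 364) and T cells (320 CPM, 179 to 527) overlapped, followed by Pi16/Dpp4/Sema3c fibroblasts (136), fibroblasts (101) and endothelial cells (40.7). Of the 10 members, 6 had the same highest class in both libraries (Itgav, Itgb1, Itgb5, Itga1, Itga4 and Itga9), beside 57.1% of 8939 genes.

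Between the diets, a member is called higher or lower below when its HFD over LFD ratio of CPM was at least 1.5, or at most 1 divided by 1.5, with at least 20 UMIs over both libraries. The plot of ratios shows all members measured at that depth. Over the 5 classes, 32 pairs of member and class had enough UMIs, of which 9 were higher and 4 lower on HFD.

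**Figure D2:**
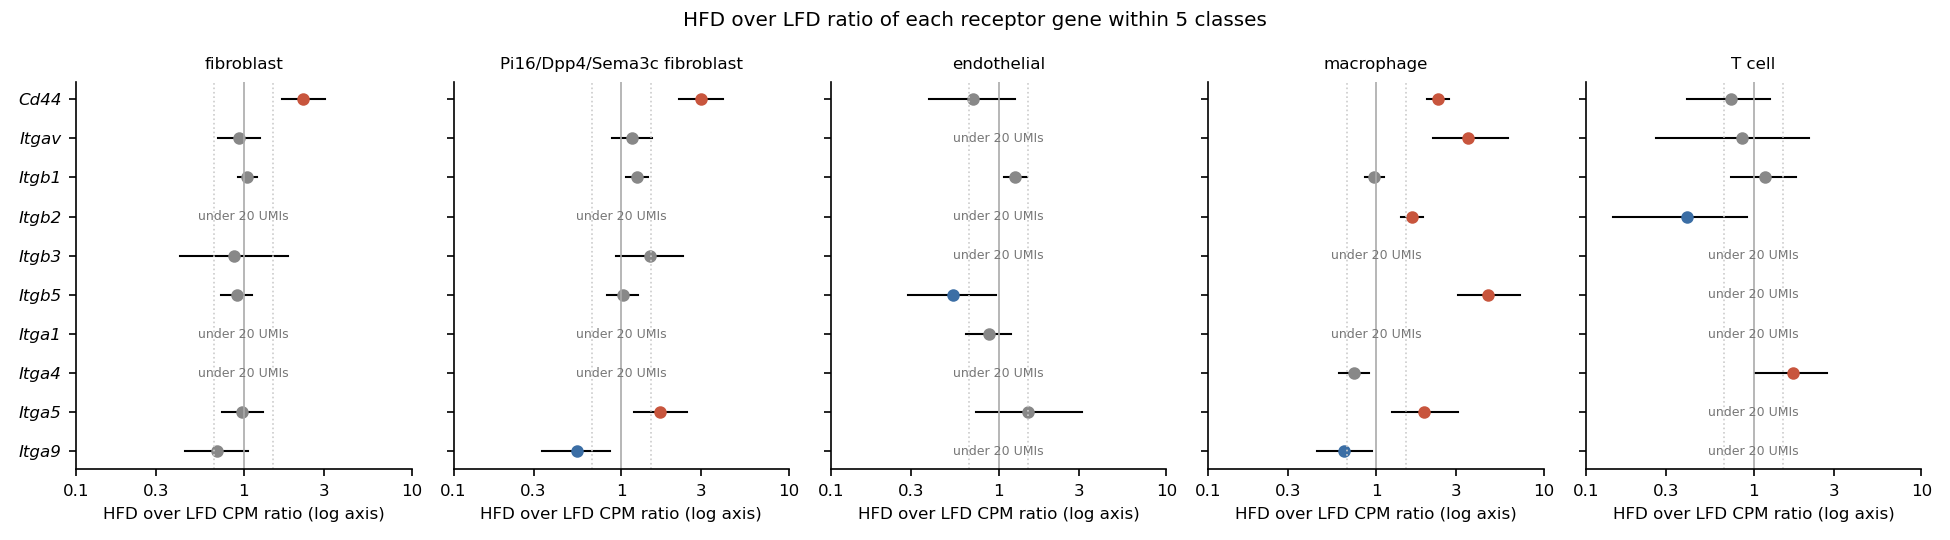
HFD over LFD ratio of CPM (x axis, log scale) for each of the 10 genes (rows) in 5 classes (panels), with exact 95% intervals of counting error as bars. Red points are at or above 1.5, blue points at or below 1 divided by 1.5 (dotted lines), and gray points lie between. Macrophages hold 5 of the 9 red points, and Cd44 is red in macrophages and both fibroblast classes.

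In macrophages, 5 of 8 measured members were higher on HFD, beside 15.8% of 9184 genes, and 1 was lower, beside 19.4%. Itgb5 measured 17.6 CPM (11.5 to 25.7) on LFD and 81.3 CPM (71.3 to 92.4) on HFD, a ratio of 4.63 (3.08 to 7.24). Itgav, the alpha chain that pairs with it, measured 12.8 CPM (7.73 to 20.1) and 45.5 CPM (38.1 to 54.0), a ratio of 3.54 (2.18 to 6.07). Neither pair of intervals overlapped. Cd44 measured 146 and 342 CPM, a ratio of 2.35 (2.02 to 2.73), and its UMIs were found in 35.8% of LFD macrophages (29.6 to 42.4%) and 70.0% of HFD macrophages (64.6 to 75.0%).

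Detection depends on depth, so each barcode was also thinned to 1000 UMIs, which left out 5 LFD and 1 HFD macrophages. Cd44 was then seen in 8.93% of LFD and 25.7% of HFD macrophages, Itgb5 in 0.893 and 8.15%, and Itgav in 0.893 and 4.08%. All 3 shares were higher on HFD, although for Itgav, on 2 and 13 barcodes, the intervals overlapped (0.108 to 3.19% and 2.19 to 6.87%). For comparison, T cells (median 2764 UMIs on LFD and 1781 on HFD before thinning) held 0 UMIs of Itgb5 in both libraries, and the thinned share of Itgav in endothelial cells was 0 on LFD and 2.08% on HFD.

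Itgb2 and Itga5 were higher on HFD by sums but not after thinning. Itgb2 measured 163 and 266 CPM, a ratio of 1.63 (1.41 to 1.89), but 68 of its 771 HFD UMIs were in 1 barcode and 43 in another, and the thinned shares were 14.3% on LFD and 13.5% on HFD. With each barcode weighted equally its ratio was 1.29, with the thinned counts 0.98 and under the cell limits of the study's methods 1.01. Itga5 measured 18.2 and 35.2 CPM, a ratio of 1.93 (1.25 to 3.06), and 1.85 with barcodes weighted equally, with UMIs in 10.0 and 21.6% of barcodes. Its thinned counts of 9 and 7 UMIs gave 0.55, and the limits of the methods 1.20. The highest 10% of macrophages held 40.7% of the Itgb2 UMIs on LFD and 57.3% on HFD.

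Itgb1 measured 245 and 238 CPM in macrophages (ratio 0.97, 0.86 to 1.11), an interval that lies below that of Itgav, but its thinned counts of 38 and 82 UMIs gave 1.51. Itga4 measured 110 and 81.0 CPM (ratio 0.74, 0.60 to 0.91), short of the fold limit, and 1.14 with barcodes weighted equally. Itga9 was lower on HFD at 35.1 and 22.8 CPM (ratio 0.65, 0.44 to 0.95), but not past the fold limit with barcodes weighted equally (0.87) or after thinning (0.70, on 11 and 11 UMIs). Itgb3 had 0 and 1 UMI and Itga1 0 and 0.

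**Figure D3:**
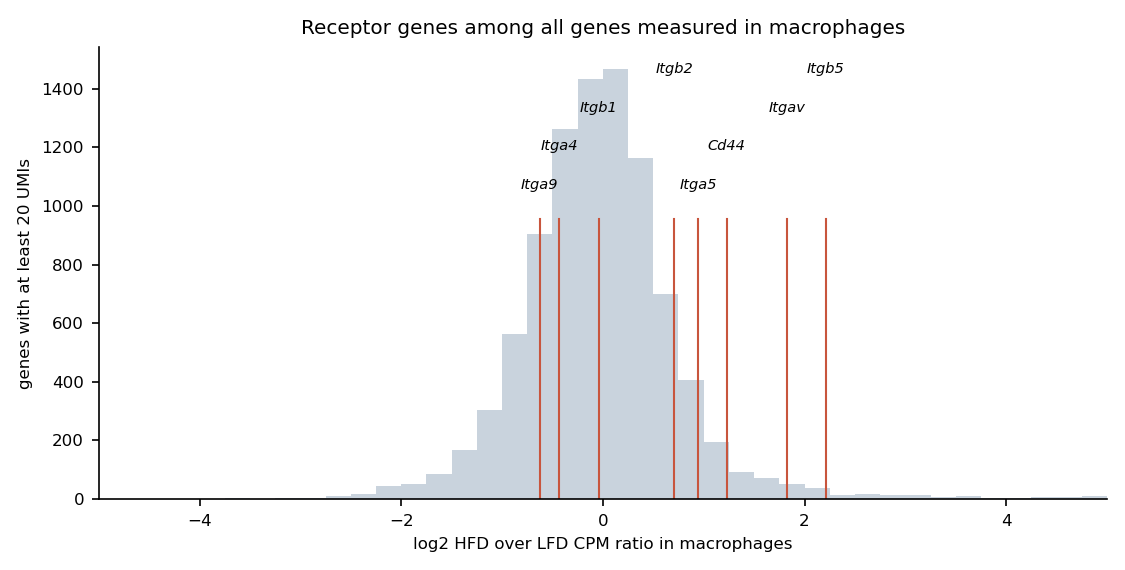
Number of genes (y axis, genes with at least 20 UMIs over both libraries, 9184 in all) by log2 ratio of HFD over LFD CPM in macrophages (x axis, gray bars), with the 8 measured members as red lines. Itgb5 and Itgav lie in the right tail at 2.21 and 1.82, and Itgb1 lies at -0.04, near the median of all genes.

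Against all genes of these macrophages, a ratio above that of Itgb5 was found for 1.53% of genes, above that of Itgav for 2.28% and above that of Cd44 for 4.37%. The median log2 ratio of the 8 measured members was 0.82, and that of all genes was -0.04. Cycling markers (Mki67, Top2a, Birc5 and Stmn1) stood at 226 CPM in LFD and 475 CPM in HFD macrophages. Without the 6 LFD and 36 HFD macrophages that held at least 2 UMIs of Mki67, Top2a and Birc5, the ratios were 5.10 for Itgb5, 3.37 for Itgav and 2.46 for Cd44, while that of Itga9 was 0.72, short of the fold limit.

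Spp1 itself counted 7 UMIs in all LFD and 199 in all HFD barcodes. Macrophages held 1 LFD UMI and 122 HFD UMIs (42.0 CPM, 34.9 to 50.2), 36 of them in 1 barcode, and barcodes of no class 5 and 73. Fibroblasts and Pi16/Dpp4/Sema3c fibroblasts had 0 UMIs on LFD and 1 each on HFD. Of the 32 HFD macrophages with Spp1, 27 also held Cd44, which was found in 224 of all 320 (70.0%), and 2 barcodes held both after thinning to 1000 UMIs.

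Of the partner chains of Itgb2, only Itgax was past the fold limit in macrophages. Itgax, which pairs with Itgb2 as CD11c, had 2 UMIs on LFD and 282 on HFD (1.35 and 97.2 CPM). Itgam, which pairs with Itgb2 as CD11b, measured 174 and 129 CPM (ratio 0.74, 0.63 to 0.88), short of the limit. Itgal (8 and 8 UMIs) and Itgad (1 and 3) had too few UMIs. Of 17 other integrin chains, 4 had enough UMIs, with Itga6 and Itgax higher and Itgb7 lower on HFD. Of 24 listed ligands and related genes, 22 were found by symbol in the count tables and 11 were measured in macrophages, of which 5 were higher and 2 lower. Those higher included Mfge8 (14.9 and 124 CPM, ratio 8.32, 5.41 to 13.5), a bridging protein that binds Itgav with Itgb3 or Itgb5, and Thbs1 (3.38 and 17.9 CPM, ratio 5.30, 2.13 to 17.0). Vcam1, the partner of Itga4, was lower (52.7 and 27.6 CPM, ratio 0.52, 0.38 to 0.72), and Fn1, the ligand of Itga5 with Itgb1, measured 397 and 436 CPM (ratio 1.10, 0.99 to 1.21). Of 17 measured adhesion and signalling genes, 3 were higher (Ptk2b, Cd9 and Cd151) and 3 lower (Pxn, Ptk2 and Cd81). These counts stand beside 15.8% of all genes higher and 19.4% lower in macrophages, and for adhesion and signalling genes the share is near that background.

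Both chains of a dimer were looked for in the same barcode, where they also meet more often when either chain is found in more barcodes. In macrophages Itgav was found in 15 LFD and 72 HFD barcodes and Itgb5 in 20 and 110. A share expected from such counts was not computed. Itgav and Itgb5 were found together in 2 of 229 LFD macrophages (0.873%, 0.106 to 3.12%) and in 42 of 320 HFD macrophages (13.1%, 9.63 to 17.3%), although after thinning to 1000 UMIs no barcode of either library held both. Itga4 and Itgb1 were found together in 29.7% (23.9 to 36.1%) and 40.0% (34.6 to 45.6%), although the Itga4 level was not higher on HFD, and in 1.79 and 1.88% after thinning. Itga9 and Itgb1 were found together in 15.3% (10.9 to 20.6%) and 13.4% (9.90 to 17.7%). Cd44 and Itgb5, which form no dimer, were found together in 3.49% (1.52 to 6.77%) and 28.4% (23.6 to 33.7%), and in 0 and 2.82% after thinning. In Pi16/Dpp4/Sema3c fibroblasts Itgav and Itgb5 were found together in 45.7% (38.1 to 53.4%) of LFD and 39.3% (28.8 to 50.6%) of HFD barcodes, and these intervals overlapped.

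CD9, a tetraspanin of the cell surface, marks macrophages that the study reports as enriched on HFD and in which it saw no lipid accumulation. The macrophages were therefore split by Cd9, after each barcode with at least 2000 UMIs was thinned to that depth. Shallower barcodes, 14 LFD and 9 HFD macrophages, were left out. The LFD library had only 3 macrophages with a Cd9 UMI after thinning (Cd9 high) and 212 with none (Cd9 low), and the HFD library 66 and 245. At full depth, 1 of the 212 LFD and 50 of the 245 HFD Cd9 low barcodes still held Cd9, at 0.693 and 130 CPM. No comparison rests on the 3. Within the HFD library, 4 of 8 measured members were higher in Cd9 high than in Cd9 low macrophages, beside 14.9% of 8197 genes, and 2 were lower, beside 16.3%. Cd9 high barcodes were the deeper ones, with a median of 8473 UMIs against 6714.

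**Figure D4:**
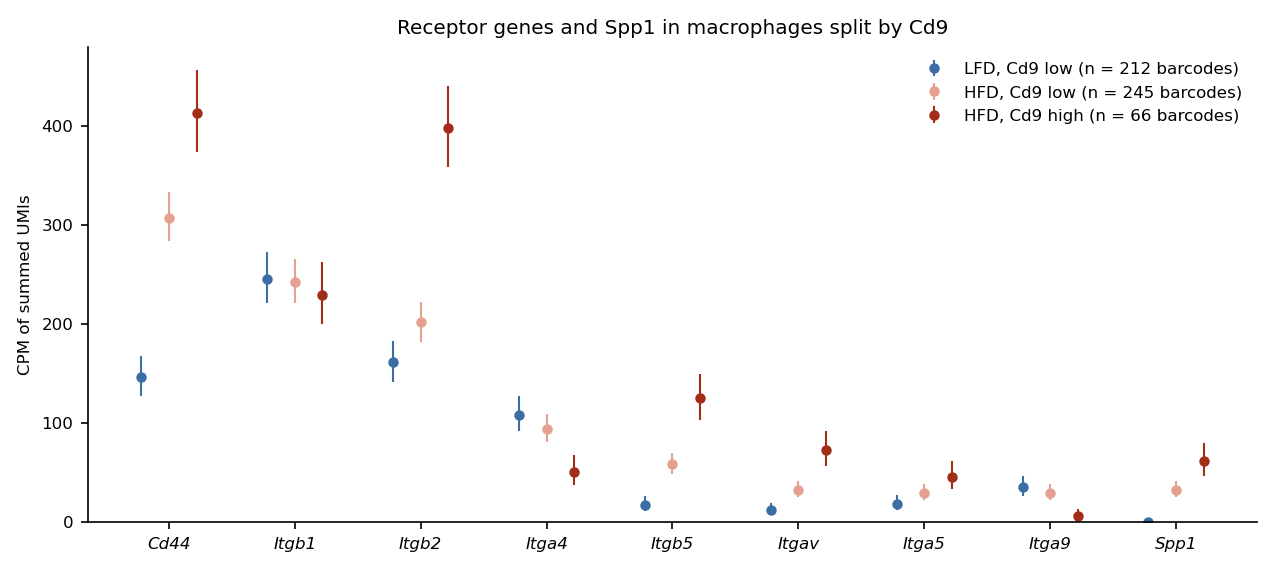
Level (y axis, CPM of summed UMIs with 95% Poisson intervals) of 8 members and Spp1 (x axis) in LFD Cd9 low, HFD Cd9 low and HFD Cd9 high macrophages. Itgb5, Itgav and Cd44 are higher in HFD Cd9 low than in LFD Cd9 low barcodes and higher again in Cd9 high barcodes, and Itga9 is lowest in Cd9 high barcodes.

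Itgav measured 72.7 CPM in Cd9 high and 32.7 CPM in Cd9 low HFD macrophages (ratio 2.22, 1.56 to 3.18), Itgb5 125 and 58.8 CPM (2.13, 1.63 to 2.78) and Itgb2 398 and 202 CPM (1.97, 1.71 to 2.28). Itga5 was at 46.0 and 30.2 CPM (1.52, 1.01 to 2.30), and Cd44, at 414 and 308 CPM (1.35, 1.18 to 1.53), stayed short of the fold limit. The lower members were Itga4, at 51.4 and 94.6 CPM (0.54, 0.39 to 0.75), and Itga9, at 6.42 and 30.2 CPM (0.21, 0.08 to 0.49), both of which bind OPN outside its RGD motif. Itgb1 was at 230 and 243 CPM (0.95, 0.80 to 1.12). With Cd9 high set at 2 UMIs (27 HFD barcodes), Itgav at 1.45 (0.88 to 2.29) and Itga5 at 1.47 (0.83 to 2.47) were no longer past the fold limit. Spp1 measured 62.1 and 32.7 CPM (1.90, 1.31 to 2.75).

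In Cd9 low macrophages 4 of 8 measured members were higher on HFD, beside 11.4% of 8637 genes, and 0 were lower, beside 16.4%. Itgb5 measured 18.0 and 58.8 CPM (ratio 3.26, 2.12 to 5.20), Itgav 12.5 and 32.7 CPM (2.62, 1.53 to 4.70), Cd44 147 and 308 CPM (2.09, 1.79 to 2.46) and Itga5 18.7 and 30.2 CPM (1.61, 1.01 to 2.64). Itgb2 (1.25, 1.06 to 1.48), Itga4 (0.87, 0.70 to 1.08) and Itga9 (0.84, 0.57 to 1.24) were closer to 1 here than in the undivided macrophages, but with the split at 2 UMIs Itgb2 was at 1.56 (1.34 to 1.81), past the limit, Itga4 at 0.77 and Itga9 at 0.69. Of the Cd9 low macrophages, 211 LFD and 195 HFD barcodes also had no Cd9 UMI at full depth. The shallower barcodes left out of the split are not among them. In these barcodes 3 of 8 members were higher on HFD, beside 8.95% of 8187 genes, and 0 were lower, beside 13.3%. Those higher were Itgb5 (18.4 and 37.7 CPM, 2.05, 1.25 to 3.43), Cd44 (139 and 275 CPM, 1.98, 1.66 to 2.36) and Itgav (12.7 and 24.9 CPM, 1.96, 1.07 to 3.69). Itga5 was at 1.19 (0.68 to 2.07) there, Itgb2 at 1.05, Itga9 at 1.01 and Itga4 at 0.97.

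In fibroblasts 1 of 7 measured members, Cd44, was higher on HFD, beside 8.38% of 8964 genes, and 0 were lower, beside 13.2%. Cd44 measured 45.0 CPM (34.9 to 57.1) on LFD and 101 CPM (86.3 to 118) on HFD, a ratio of 2.25 (1.68 to 3.04). A single HFD barcode held 25 of the 162 UMIs, and without the highest barcode of each library the ratio was 2.03. The thinned share went from 2.51% (0.821 to 5.77%) to 8.78% (5.29 to 13.5%), with overlapping intervals. Macrophage markers summed to 16.8 CPM in LFD and 12.5 CPM in HFD fibroblasts with Adgre1 at 0 in both. Itgb2 had 3 and 0 UMIs. Barcodes that also met the macrophage cut were left out of this class, and the list includes the genes of that cut. The sum was therefore partly limited in advance, and whether transcripts of other cells added to the Cd44 level was not tested.

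None of the 6 integrin chains measured in fibroblasts passed the fold limit. Their ratios were 1.05 for Itgb1 (0.92 to 1.19), 0.98 for Itga5 (0.74 to 1.30), 0.93 for Itgav (0.70 to 1.24), 0.91 for Itgb5 (0.73 to 1.12), 0.88 for Itgb3 (0.41 to 1.85) and 0.69 for Itga9 (0.45 to 1.06). After thinning, Itgb1 was at 0.71 (68 and 50 UMIs) and Itgav at 0.68 (20 and 14), and with barcodes weighted equally Itga9 was at 0.57, past the limit. Of 19 ligands and related genes measured in these cells, 6 were higher, beside 8.38% of all genes, and 1 was lower, beside 13.2%. Those higher included Postn (65.1 and 397 CPM, ratio 6.10, 4.92 to 7.63), a ligand of Itgav pairs, Thbs1 (493 and 824 CPM, 1.67, 1.53 to 1.83), and Has1 (407 and 720 CPM, 1.77, 1.60 to 1.95), which makes the hyaluronan that CD44 binds. Tnc had 0 LFD and 40 HFD UMIs, and it is a matrix ligand of Itga9 and Itgav pairs.

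Pi16/Dpp4/Sema3c fibroblasts had 2 of 7 measured members higher on HFD, beside 8.70% of 8763 genes, and 1 lower, beside 11.7%. Cd44 measured 45.5 CPM (35.9 to 57.0) and 136 CPM (112 to 164), a ratio of 2.99 (2.21 to 4.06), with UMIs in 28.9% (22.3 to 36.3%) and 48.8% (37.7 to 60.0%) of barcodes. The thinned shares were 5.78% (2.81 to 10.4%) and 11.9% (5.86 to 20.8%), with overlapping intervals, and 1 HFD barcode held 18 of the 112 Cd44 UMIs. Itga5 measured 41.9 CPM (32.7 to 53.0) and 71.7 CPM (54.6 to 92.5), a ratio of 1.71 (1.19 to 2.45), of which 1 HFD barcode gave 11 of 59 UMIs, and without the highest barcodes the ratio was 1.49, just short of the limit. Itga9 was lower, at 55.7 and 30.4 CPM (ratio 0.55, 0.34 to 0.86), although few UMIs were left after thinning (10 and 4, ratio 0.82) and under the limits of the methods (6 and 6, ratio 1.23). Itgav had a ratio of 1.165 (0.88 to 1.53) by sums. Its thinned share went the other way, from 13.9% (9.10 to 19.9%) to 4.76% (1.31 to 11.8%), with overlapping intervals.

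Mesothelial markers were present in 33 LFD and 14 HFD barcodes of that class (at least 5 UMIs). Without them the ratios were 3.07 for Cd44, 1.73 for Itga5 and 0.50 for Itga9, all on the same side of the fold limit. Cycling markers stood at 6.04 CPM in LFD and 95.7 CPM in HFD fibroblasts and at 16.8 and 140 CPM in Pi16/Dpp4/Sema3c fibroblasts. Without the 3 and 2 HFD barcodes with at least 2 such UMIs, the Cd44 ratios were 2.23 and 2.95.

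Endothelial cells had 0 of 5 measured members higher on HFD, beside 9.55% of 6239 genes, and 1 lower, beside 10.9%. The lower member was Itgb5, at 65.1 CPM (45.6 to 90.2) and 34.8 CPM (20.7 to 55.1), a ratio of 0.54 (0.29 to 0.97) on 36 and 18 UMIs. Adipocyte markers (Adipoq, Plin1, Car3 and Cidec) in these barcodes stood at 1250 CPM on LFD and 376 CPM on HFD, and their part in the result was not tested. With barcodes of several classes kept the ratio of Itgb5 was 0.82. Itgb1 was at 525 and 660 CPM (1.26, 1.07 to 1.48), Itga1 at 174 and 151 CPM (0.87, 0.64 to 1.19), Cd44 at 57.9 and 40.7 CPM (0.70, 0.38 to 1.26) and Itga5 at 27.1 and 40.7 CPM (1.498, just short of the limit, 0.74 to 3.12).

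Barcodes with endothelial and mural markers had 2 of 7 measured members higher on HFD, beside 9.37% of 7941 genes, and 0 lower, beside 7.95%. These were Itgav, at 23.8 and 37.2 CPM on 18 and 35 UMIs (ratio 1.56, 0.86 to 2.93), and Itga9, at 9.27 and 19.1 CPM on 7 and 18 UMIs (2.06, 0.82 to 5.85), 8 of the 18 in 1 barcode. Both intervals include 1. Cd44 here measured 70.2 and 52.1 CPM, with overlapping intervals.

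T cells were few on HFD (21 barcodes and 46943 UMIs). Of 5 measured members 1 was higher, beside 16.4% of 2837 genes, and 1 lower, beside 30.8%. Itga4 was higher, at 274 and 469 CPM (ratio 1.71, 1.02 to 2.75), and Itgb2 lower, at 317 and 128 CPM (0.40, 0.14 to 0.91) on 104 and 6 UMIs. Keeping barcodes of several classes, which added 1 barcode to each library, gave ratios of 1.22 and 0.80, and the part of the other cell types' markers in the LFD barcodes, given above, was not tested. After thinning to 1000 UMIs neither gene was past the fold limit in the same direction, and with the class cuts doubled Itga4 was not. Cd44 was at 436 and 320 CPM (0.73, 0.40 to 1.25), Itgb1 at 457 and 533 CPM (1.16, 0.73 to 1.79) and Itgav at 125 and 107 CPM (0.85, 0.26 to 2.15).

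Barcodes of no class contributed much of 3 members. They held 24.6% of LFD and 29.4% of HFD Cd44 UMIs, 32.7 and 47.2% of Itga4 UMIs and 23.7 and 24.4% of Itgb2 UMIs. Among them, 25 LFD and 62 HFD barcodes carried at least 5 UMIs of the monocyte list (Ly6c2, Plac8, Ccr2 and Chil3) and not of the dendritic cell, B cell or natural killer cell list, a grouping added after the data were seen. Monocytes are the blood-borne precursors of many macrophages. The list is not particular to them, since it summed to 970 CPM in LFD and 1108 CPM in HFD T cells. In barcodes of no class it summed to 749 and 1090 CPM. Whether lymphoid barcodes below the T cell cut entered this group was not tested.

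**Figure D5:**
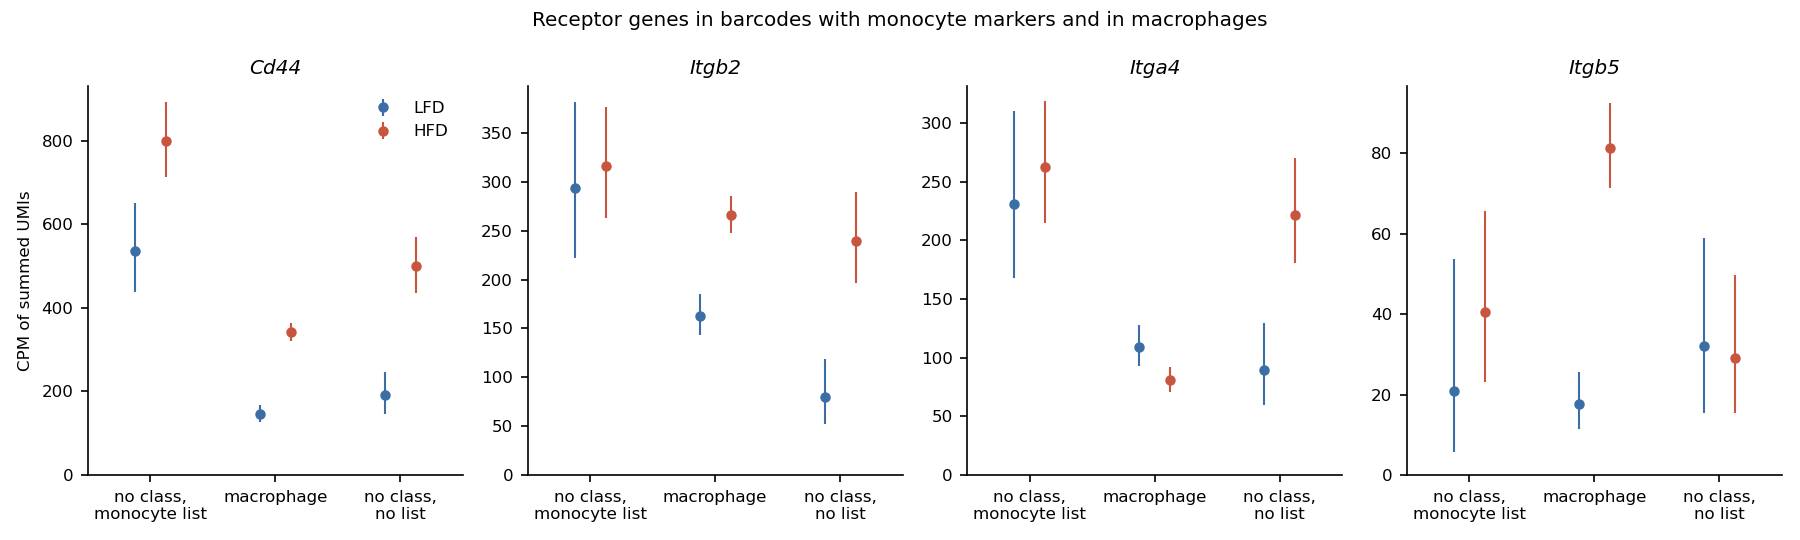
Level (y axis, CPM of summed UMIs with 95% Poisson intervals) of Cd44, Itgb2, Itga4 and Itgb5 in barcodes of no class with the monocyte list, in macrophages, and in barcodes of no class without any of the 4 lists, LFD in blue and HFD in red. Cd44 and Itga4 are higher in the barcodes with monocyte markers than in macrophages of the same library, and Itgb5 on HFD is higher in macrophages.

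Cd44 measured 535 CPM (436 to 650) on LFD and 799 CPM (713 to 892) on HFD in the barcodes with monocyte markers, above the macrophages of the same library at 146 and 342 CPM. Itga4 measured 231 and 263 CPM there, against 110 and 81.0 CPM in macrophages, and Itgb2 294 and 316 CPM, against 163 and 266 CPM. In the barcodes with monocyte markers Itgb5 was at 21.0 CPM on 4 UMIs and 40.5 CPM on 16 UMIs (23.1 to 65.7), against 17.6 and 81.3 CPM in macrophages. Itgav was at 31.5 and 20.2 CPM, against 12.8 and 45.5 CPM in macrophages. The HFD intervals of Itgb5 did not overlap between these groups, and those of Itgav overlapped, as did the LFD intervals of both genes. The 146 LFD and 142 HFD barcodes of no class with none of these lists, at medians of 1002 and 1360 UMIs, measured 192 and 499.7 CPM of Cd44 and 89.7 and 222 CPM of Itga4, so that on HFD they too were above macrophages. The 13 LFD and 4 HFD barcodes with the B cell list held 13 and 3 UMIs of Itga4 and 3 and 0 of Cd44.

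Over all barcodes of a library, where the mix of cells and the level in each cannot be told apart, Cd44 measured 112 and 243 CPM (ratio 2.16, 1.99 to 2.35) and Itgb2 65.0 and 132 CPM (2.03, 1.82 to 2.26). These 2 of the 10 members were higher on HFD, beside 6.79% of 12940 genes, and Itga9 (31.0 and 20.3 CPM, 0.65, 0.53 to 0.80) was lower, beside 15.1%. Macrophages held 26.4% of Cd44 UMIs on LFD and 48.7% on HFD, and were 21.7 and 28.6% of barcodes. Itgb5 and Itgav were level over all barcodes, with ratios of 1.01 (0.91 to 1.13) and 0.98 (0.85 to 1.13). Their distribution was not, since macrophages held 4.30% of Itgb5 UMIs on LFD and 33.4% on HFD, and 4.95 and 30.5% of Itgav UMIs, while fibroblasts held 30.6 and 25.5% of Itgb5 UMIs and Pi16/Dpp4/Sema3c fibroblasts 42.2 and 18.1%. Such shares follow the size of a class as well as the level in it. The Pi16/Dpp4/Sema3c fibroblasts were 16.4% of LFD and 7.52% of HFD barcodes, and their Itgb5 level was 153 and 155 CPM.

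Genes with a pattern most like each member over 12 sums (6 classes in 2 libraries) were ranked by Pearson's r of log2(CPM + 10), as a description. The points share libraries and depth, and 2 of them are the sparse mural sums. The closest were Ncf4, Cd84 and Arhgap9 for Itgb2 (r from 0.995 to 0.998) and Epsti1, Ikzf1 and Rac2 for Itga4 (r from 0.996 to 0.997), among which Ikzf1 and Rac2 are well-known leukocyte genes. Thy1 was closest to Itgb3 (0.945), Ckap4 to Itga5 (0.960), B3galnt1 to Itga9 (0.967), Hmgn1 to Itgb5 (0.950) and Pycard to Cd44 (0.882). Only 10 of the 30 genes so ranked were among the closest again without the mural sums, and B3galnt1, Hmgn1 and Pycard were not.

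The members lie apart in the genome. On GRCm38, Cd44 spans chr2:102811141-102901665 on the minus strand, with 8 annotated coding transcripts that a count at the transcript's end cannot separate. Itgav spans chr2:83724397-83806916, Itgb5 chr16:33829665-33949338 and Itgb2 chr10:77530252-77565708, all on the plus strand. Spp1 spans chr5:104435118-104441050 on the plus strand.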

How the data were processed

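Single-cell libraries of eWAT stromal vascular cells were analysed from the UMI counts that the authors deposited, as whole-number counts per gene and barcode with no normalization. The authors made them with Cell Ranger on mm10. The table header names software version 3.0.2. Barcodes outside the limits of the study's methods (200 to 2500 genes, under 5% mitochondrial UMIs) were present, and 294 LFD and 352 HFD barcodes met them, so these limits served as an alternative.

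Barcodes with at least 200 genes were classed by marker UMIs, and those of several classes were left out. UMIs were summed by class and library and divided by the UMIs of the sum (CPM). CPM carries an exact Poisson interval, a ratio an exact conditional binomial interval and a share a Clopper-Pearson interval. With 1 library per diet there was no test, replicate or SD. Every member was to be named, with Spp1, and 3 genes per member by likeness of pattern, among genes with at least 200 UMIs. Members, classes and gene lists were chosen with earlier results of these data known. For an alternative, Scrublet (expected rate 1%) marked 20 LFD and 26 HFD barcodes as doublets, which otherwise stayed in. Gene positions came from GENCODE M21 and promoters from RefSeq. Intervals and fold calls were tried on simulated Poisson counts around the LFD macrophage sums. These counts have no spread between barcodes, so they cannot show how the intervals fare under such spread. The work used Python 3.11.15, numpy 2.4.6, scipy 1.17.1, pandas 2.3.3, scanpy 1.11.5 and matplotlib 3.10.9.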

Additional observations from a re-analysis of the deposited data

Results flagged for a closer look

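For 3 members the HFD over LFD ratio lay above 1 in 1 class and below 1 in another, with intervals of counting error that left out 1 in both. Itgb2 had a ratio of 1.63 in macrophages and 0.40 in T cells. Itgb5 had 4.63 in macrophages and 0.54 in endothelial cells, the latter on 36 and 18 UMIs. Itga4 had 1.71 in T cells and 0.74 in macrophages. With barcodes of several classes kept, the T cell ratios were 1.22 for Itga4 and 0.80 for Itgb2, neither past the fold limit. In macrophages, Itga4 was at 1.14 with barcodes weighted equally and at 1.12 after thinning, and Itgb2 at 0.98 after thinning. The differences between classes were not tested, since each diet had 1 library, and the T cell values rest on 21 HFD barcodes.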

How the results depend on the processing

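In place of 9 pairs of member and class higher and 4 lower on HFD, thinning each barcode to 1000 UMIs gave 5 higher pairs, 4 of them among the 9, and 1 lower, not among the 4. Keeping barcodes of several classes gave 2 lower pairs and the cell limits of the methods 1, each among the 4. In macrophages, the limits of the methods gave 3 higher members, all among the 5, and thinning 3, of which 2 were among the 5 and the other was Itgb1. After thinning, and under the limits of the methods, 20 pairs had at least 20 UMIs in place of 32. Splitting macrophages at 2 UMIs of Cd9 left 2 members higher in Cd9 high barcodes in place of 4 (Itgb2 at 1.52 and Itgb5 at 1.65), and 2 lower, and 5 higher on HFD among Cd9 low macrophages in place of 4. The cause was not tested. Of the pairs past the fold limit, ratios turned to the other side of 1 for Itgb2 (0.98) and Itga5 (0.55) in macrophages after thinning, and for Itga9 in Pi16/Dpp4/Sema3c fibroblasts under the limits of the methods (1.23, on 6 and 6 UMIs). Over the alternatives, 325 of 352 single ratios stayed inside the interval of the reported value and 24 others left it, 9 of which crossed 1 from a value short of the fold limit (6 of them after thinning). Cd44 in macrophages and both fibroblast classes, and Itgav and Itgb5 in macrophages, stayed at or above 1.5 under each alternative run, although Itgav after thinning (2 and 15 UMIs) and Cd44 in Pi16/Dpp4/Sema3c fibroblasts under the limits of the methods (1 and 14) fell below the minimum of 20 UMIs. Leaving out doublets or mesothelial barcodes kept all 229 LFD and 320 HFD macrophages. These alternatives could therefore not change a macrophage ratio, and the 325 ratios include them. The alternatives without any Cd9 UMI, without the highest barcode, without mesothelial and without cycling barcodes were chosen after seeing the data. No paired analysis was possible because each diet had 1 library, and leaving out a replicate was not possible for the same reason. Depth limits Itgb3, with 81 and 69 UMIs in all, and the T cell values, with 21 HFD barcodes.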
